A study of Mus musculus with 16 samples.

Results

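The genes described here are 36 mouse genes that carry glucose into the cell, split it in glycolysis, route pyruvate and lactate, and store or release glycogen. They were taken by symbol from the deposited table, in which 37 of the 23306 rows map to them because Aldoa has a second row, and 36 of those rows, 1 per gene, were among the 16509 tested. The second Aldoa row lay between 1.19 and 12.1 and was not tested. The study sequenced RNA of epithelial organoids, small hollow structures grown from the cell layer that lines the mouse uterus. There were 4 groups of 4 libraries. The cKO organoids, labelled Tgfbr2 PRcre+, came from conditional knockout mice in which Cre recombinase is driven from the progesterone receptor gene, and the control organoids, labelled Tgfbr2 FF, had the floxed gene. The groups were cKO under E2/MPA (libraries M13 to M16), cKO under vehicle (M5 to M8), control under E2/MPA (M9 to M12) and control under vehicle (M1 to M4). All organoids grew for 2 days before treatment. The E2/MPA groups then received 10 nM estradiol (E2) for 2 days, followed by 10 nM E2 with 1 µM of the synthetic progestin medroxyprogesterone acetate (MPA) for 4 days, and the vehicle groups received vehicle for 6 days. The Cre allele was present in the cKO groups only, so its presence and the loss of the receptor cannot be told apart.

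Glucose enters cells through facilitative carriers and is trapped by hexokinase as glucose 6-phosphate, which stands at a branch point. It can pass down glycolysis to pyruvate, enter the pentose phosphate route through glucose 6-phosphate dehydrogenase, or be converted through glucose 1-phosphate and UDP-glucose into glycogen. Uterine glands and lining epithelium are known to take up glucose and to lay down glycogen under ovarian hormones, and glycolysis supplies lactate to the uterine lumen.

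Levels are deposited normalized counts, reads divided by a size factor per library, and fold changes are differences of log2(normalized count + 1), on which 1 means a doubling. A gene is said to have risen or fallen where its adjusted p from a limma fit over all 16509 genes was under 0.05. Recovered depth was 14372111 to 20016836 reads per library, and the 36 genes together took 1.10% to 1.58% of the reads. Tgfbr2, the targeted gene, averaged 4326 ± 850 in cKO and 5356 ± 1685 in control organoids under E2/MPA, and 4325 ± 811 in cKO and 6014 ± 1467 in control organoids under vehicle (SD, n = 4). Neither difference passed (adjusted p = 0.690 and 0.833), and a total over the gene does not check a deletion of part of it. The mean log2 level of 9 epithelial markers lay between 12.6 and 13.2 in all libraries. That of 10 stromal fibroblast markers was 10.2 in M16, 9.35 in M8, 10.5 in M12 and 10.4 in M4, called stroma-rich below, 9.17 in M9 and 8.12 in M1, and between 4.64 and 6.86 in the other 10 libraries. The stroma-rich libraries also had the highest epithelial mean of their groups, 13.2 in M16, 13.1 in M8, 13.0 in M12 and 13.1 in M4. Stromal markers took the largest share of reads in M4, 0.31%. The sum of the 10 stromal markers ran between 1927 and 34574 (cKO E2/MPA), 1429 and 19194 (cKO vehicle), 1536 and 41436 (control E2/MPA), and 786 and 48660 (control vehicle). Of these markers Lum was at 0 in M5 and M7, Thy1 in M11 and Postn in M3, M5 and M6. The level of a gene in such libraries is a sum over cells, so fewer cells of a type and less RNA per cell cannot be told apart.

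Glycolysis genes stood among the most abundant of the set. Levels per kb were divided by the union of all annotated exons of a gene, for example 13401 bases for Pfkp, 6675 for Pfkl and 4133 for Gapdh. This union can exceed the length of the transcript in use, so the order and gaps per kb depend on it. Per kb of exon, Aldoa (aldolase A) had the highest mean over all libraries, 9873 normalized counts, followed by Pgk1 (phosphoglycerate kinase) at 9105, Ldha (lactate dehydrogenase A) at 6581, Pkm (pyruvate kinase) at 5734, Eno1 (enolase) at 5496 and Tpi1 (triose phosphate isomerase) at 4848. The ranges of neighbours in this order overlapped, except in the following cases. Every library of Tpi1 lay above every library of Pgam1 (phosphoglycerate mutase, mean 2766 per kb). Every library of Gpi1 (glucose phosphate isomerase, mean 1802 per kb) also lay above every library of Hk2. One form of most enzymes predominated. Aldoa stood far above Aldoc (139 per kb), Ldha above Ldhb (189), and the liver-type phosphofructokinase Pfkl (928) above the platelet type Pfkp (192) and the muscle type Pfkm (103). Among carriers Slc2a1, which encodes GLUT1, had 1962 per kb, against 40.7 for Slc2a8 (GLUT8), which lay between 29.9 and 58.1 in all libraries. Slc2a3 (GLUT3) ran between 0.339 and 609 per kb by library, so that its mean of 67.9 rests on M10 and M11 and gives it no firm place in this order. Hexokinase was shared between Hk2 at 1026 and Hk1 at 541 per kb. Glycogen synthase Gys1 was at 355 and the brain-type glycogen phosphorylase Pygb at 256 per kb, while the liver type Pygl had the lowest level of all 36 genes, 12.9.

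The first comparison asked how E2/MPA affects these genes in each genotype. In cKO organoids 2 of the 36 genes rose and none fell, the hexokinase gene Hk1 and Ugp2, the enzyme that makes UDP-glucose. That is 5.56% of the set, beside 4.19% of all genes called in either direction (2.71% higher and 1.48% lower). In control organoids 6 rose and none fell, which is 16.7%, beside 8.9% of all genes (5.39% higher and 3.51% lower). These were Hk1 and Ugp2 again with Slc2a3, Pfkfb3, the pyruvate carboxylase gene Pcx and the galactose mutarotase gene Galm. With the effect averaged over both genotypes 8 rose and 1 fell, which is 25%, beside 19.8% of all genes, and the share that rose was 22.2%, beside 10.8% of all genes (9.03% of all genes fell). The median log2 fold change of the 36 genes was 0.15 in cKO and 0.14 in control organoids, against medians of all genes of -0.0039 and -0.00077. Without M8 alone the median of the 36 genes in cKO organoids was -0.0071, and without M12 alone that in control organoids was 0.04. Without M4, M8, M12 and M16 it was 0.0058 in cKO and 0.04 in control organoids, and with library weights 0.05 and 0.06. Without M16 alone the median was 0.101 in cKO organoids, and without M4 alone it was 0.109 in control organoids. With the stromal mean as a covariate it was 0.149 in cKO and 0.136 in control organoids. The shift of the whole set thus depended mainly on M8 in cKO and on M12 in control organoids. Why these libraries moved it was not tested. The 10 stromal markers had log2 fold changes between -2.13 and 4.11 in cKO organoids, with none called. In control organoids these ran between -3.31 and 6.17, and 1 marker rose, so the stromal covariate may carry part of the hormone effect. By step, the medians ran between -0.08 (transport) and 0.50 (G6pdx and Galm) in cKO and between -0.05 (lower glycolysis) and 0.96 (G6pdx and Galm) in control organoids. Leaving out single libraries moved the count in cKO organoids between 0 and 3, with none called without M14 or without M15 and 1 called without M5, M7, M8 or M13, so the count of 2 in cKO organoids rests on these libraries. The groups did not overlap, with E2/MPA higher, for 6 of the 36 genes in cKO organoids, beside 8.01% of all genes, and for 6 in control organoids, beside 6.66%. No gene of the set was lower without overlap in either genotype, beside 5.8% of all genes in cKO and 5.49% in control organoids.

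**Figure D1:**
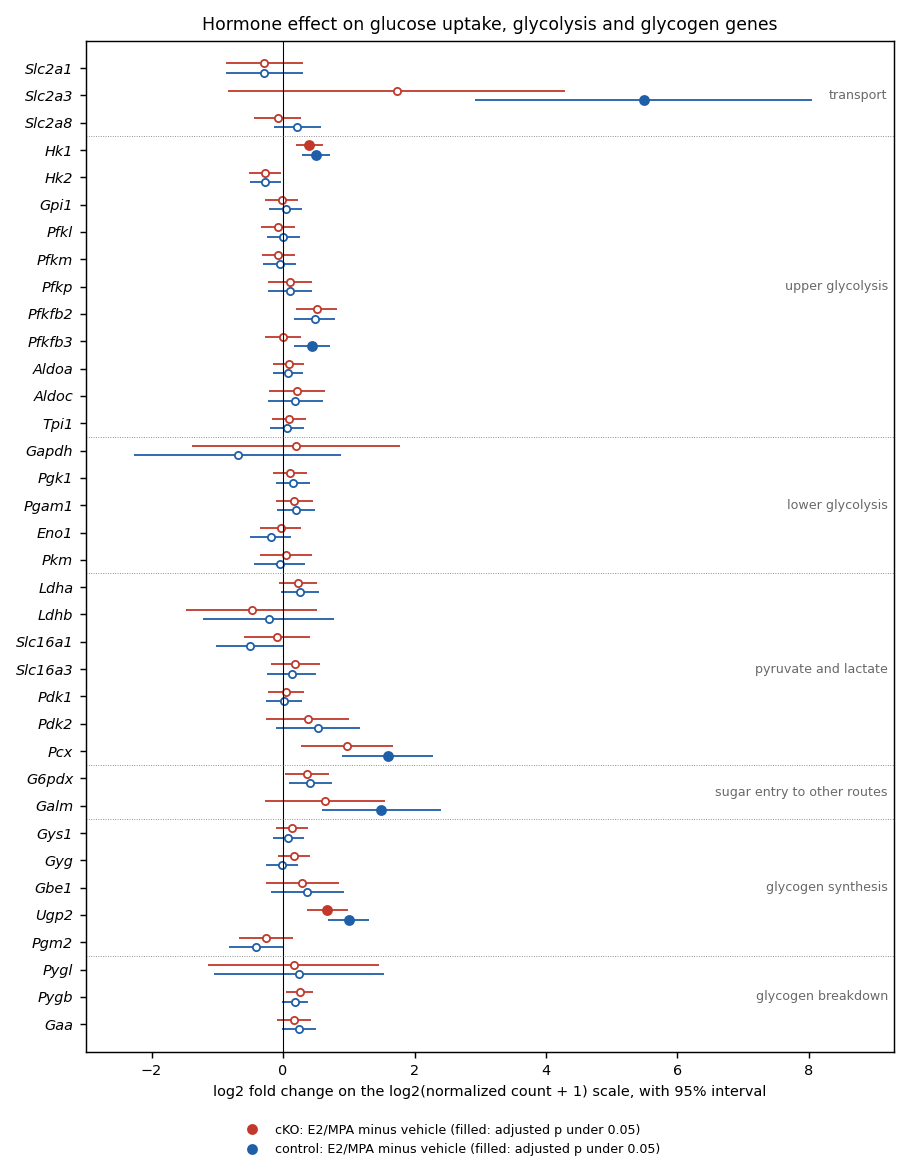
Log2 fold change (x axis, on the log2(normalized count + 1) scale) of the 36 genes, grouped by step, in cKO (red, upper point of each row) and control organoids (blue, lower point), each E2/MPA minus vehicle. Lines are 95% intervals and filled points have an adjusted p under 0.05: Hk1 and Ugp2 are filled in both genotypes, and Slc2a3, Pfkfb3, Pcx and Galm in control organoids.

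Ugp2 (ENSMUSG00000001891), which joins glucose 1-phosphate to UTP and so feeds glycogen synthesis, was the gene with the lowest adjusted p of the set in both genotypes. In cKO organoids it had 2025, 2615, 2180 and 1821 normalized counts under E2/MPA and 1249, 1404, 1441 and 1306 under vehicle, a log2 fold change of 0.67 (SE 0.15, adjusted p = 0.0180). Control organoids had 2616, 3493, 3411 and 2112 under E2/MPA and 1294, 1576, 1517 and 1337 under vehicle, a change of 1.00 (SE 0.15, adjusted p = 8.2e-04). Every E2/MPA library of each genotype lay above every vehicle library of that genotype. The call in control organoids held under all 32 alternatives tried, and the call in cKO organoids under 29 of 32 (adjusted p between 2.91e-04 and 0.0672), lost without M5, M14 or M15.

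Hk1 (ENSMUSG00000037012) encodes the hexokinase that most tissues carry, which sits on the mitochondrial surface. It had 6091, 5471, 5114 and 4998 normalized counts under E2/MPA and 4762, 4396, 3974 and 3368 under vehicle in cKO organoids (log2 fold change 0.40, SE 0.10, adjusted p = 0.0325). In control organoids the values were 5263, 5614, 5217 and 4819 under E2/MPA and 3468, 3941, 3816 and 3578 under vehicle (0.50, SE 0.10, adjusted p = 0.00579). Again the treated and vehicle libraries did not overlap in either genotype. In cKO organoids Hk1 stayed past the threshold in 25 of 32 alternatives (adjusted p between 6.51e-04 and 0.109). It lost the call without M7, M8, M13, M14 or M15, each left out alone, with upper-quartile scaling, and when only the groups compared entered the fit.

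Hk2, the inducible hexokinase that predominates in muscle and many tumours, differed from Hk1 in sign. It had 5596, 4704, 5690 and 6298 normalized counts under E2/MPA and 7089, 5664, 7353 and 6781 under vehicle in cKO organoids. The control libraries held 5623, 4662, 5726 and 6161 under E2/MPA and 7426, 5852, 6825 and 6559 under vehicle. The groups overlapped in both genotypes, neither effect passed (log2 fold change -0.27 in each, adjusted p = 0.211 and 0.161), and averaged over both genotypes Hk2 fell by 0.27 (SE 0.08, adjusted p = 0.0280). This averaged call was lost without M1, M5, M7, M10 or M14. The log2 ratio of Hk2 to Hk1 within a library was 0.04 ± 0.25 under E2/MPA and 0.71 ± 0.29 under vehicle in cKO organoids (SD, n = 4), a difference of -0.67. In control organoids it was 0.08 ± 0.26 under E2/MPA and 0.85 ± 0.22 under vehicle, a difference of -0.77. The ratio did not overlap between treatments in either genotype (exact two-sided permutation test, p = 0.0286 each, the smallest that 4 against 4 libraries allow, and 0.163 when adjusted over the 40 ratio tests). The ratio is of counts not divided by length, so it shows a change between treatments and not which of the genes had the higher level.

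Promoter sequences are shown for Hk1 and Ugp2, the genes called in both genotypes, and for Pcx, which rose in control organoids. That of Ldha, an abundant glycolysis gene that did not pass, is added so that the windows can be set side by side. Each window runs from 250 bases before to 50 after an annotated start (RefSeq, GRCm38.p6), and where a gene had several windows the one with the most matches is printed. Capitals mark ACGTG or GCGTG, the core that hypoxia-inducible factors bind, on either strand (CACGT and CACGC on the other), and AGAACA (or TGTTCT), the element that steroid receptors such as the progesterone receptor bind as 1 arm of their site.
Hk1, chr10:62340372-62340671, minus strand: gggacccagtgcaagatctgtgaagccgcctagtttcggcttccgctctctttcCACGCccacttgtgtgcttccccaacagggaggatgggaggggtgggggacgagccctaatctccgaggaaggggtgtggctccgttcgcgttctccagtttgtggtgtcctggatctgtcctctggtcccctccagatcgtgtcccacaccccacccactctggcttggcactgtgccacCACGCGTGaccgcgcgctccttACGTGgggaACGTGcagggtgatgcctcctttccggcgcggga
Ugp2, chr11:21371218-21371517, minus strand: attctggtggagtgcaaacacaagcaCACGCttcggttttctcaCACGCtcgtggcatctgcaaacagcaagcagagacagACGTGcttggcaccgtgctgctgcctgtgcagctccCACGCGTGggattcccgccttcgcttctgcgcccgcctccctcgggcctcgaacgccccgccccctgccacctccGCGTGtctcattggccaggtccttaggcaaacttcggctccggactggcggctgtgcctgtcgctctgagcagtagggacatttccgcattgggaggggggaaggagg
Pcx, chr19:4510222-4510521, plus strand: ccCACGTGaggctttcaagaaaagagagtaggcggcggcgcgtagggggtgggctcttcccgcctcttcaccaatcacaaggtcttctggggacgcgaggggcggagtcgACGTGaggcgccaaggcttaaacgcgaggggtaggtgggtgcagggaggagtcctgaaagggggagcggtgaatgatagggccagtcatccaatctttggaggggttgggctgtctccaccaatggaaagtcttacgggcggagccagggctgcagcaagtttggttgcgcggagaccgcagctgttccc
Ldha, chr7:46845554-46845853, plus strand: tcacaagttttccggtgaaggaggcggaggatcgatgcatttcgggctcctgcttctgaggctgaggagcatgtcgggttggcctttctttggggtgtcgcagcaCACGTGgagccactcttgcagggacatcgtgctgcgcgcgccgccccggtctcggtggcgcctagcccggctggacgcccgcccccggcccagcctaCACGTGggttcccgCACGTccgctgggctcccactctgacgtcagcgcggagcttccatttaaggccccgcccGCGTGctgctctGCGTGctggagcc

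The window of Hk1 held 2 matches to ACGTG and 3 to GCGTG, that of Ugp2 held 1 and 5, that of Pcx 3 and 0, and that of Ldha 5 and 2, and none of the 4 printed windows held AGAACA. Each of these genes has another window in the table, so the printed counts follow from the choice of the window with the most matches and are not a result. The other window of Hk1 (chr10:62379859-62380158) held neither core and 1 AGAACA, those of Ugp2 (chr11:21370580-21370879) and Pcx (chr19:4594069-4594368) held none of these motifs, and that of Ldha (chr7:46846832-46847131) held 2 GCGTG and no ACGTG. A palindromic CACGTG, of which Pcx has 1 and Ldha 2, holds ACGTG on both strands and counts as 2 matches. Over the set, 34 of the 36 genes matched the promoter table, with 52 windows, and 40 of these held ACGTG or GCGTG (76.9%), against 43.8% of all 32851 windows and 49.3% of the 21263 windows of protein-coding genes. The windows of the set were richer in G and C, with a median of 61.2%, against 52.7% for all windows, and both core motifs contain several such bases. The motif CACGTG stood in 17.3% of the set's windows, against 7.15% of all, and AGAACA in 17.3%, against 19.0% of all. A match is a string of letters in a window and does not show that a factor binds there.

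Slc2a3 (ENSMUSG00000003153), the gene of the high-affinity carrier GLUT3 known best from neurons and placenta, had the largest change of the set in control organoids. It had 151, 4413, 2763 and 186 normalized counts there under E2/MPA (M9 to M12) and 29.3, 10.2, 2.45 and 72.8 under vehicle, a log2 fold change of 5.48 (SE 1.20, adjusted p = 0.0107). In cKO organoids it had 25.0, 56.4, 11.4 and 84.9 under E2/MPA and 6.73, 3.36, 6.78 and 49.4 under vehicle, a change of 1.73 (SE 1.20, adjusted p = 0.489) with overlapping groups. Within control E2/MPA the libraries fell far apart, with M10 and M11 more than 10 times as high as M9 and M12, which had higher stromal markers. All 4 cKO E2/MPA libraries lay below all 4 control E2/MPA libraries (log2 fold change -4.43, SE 1.20, adjusted p = 0.202), and the difference between the hormone effects was -3.76 (SE 1.70, unadjusted p = 0.0429, adjusted p = 1.00). The call in control organoids held in 31 of 32 alternatives and was lost when only the groups compared entered the fit (adjusted p = 0.0709, over all alternatives 8.04e-06 to 0.0709). Its log2 fold change ran between 4.64 and 8.37, the highest without M4, M8, M9, M12 and M16, libraries left out together after seeing the data. That fit kept only M10 and M11, the high libraries, in the control E2/MPA group. The genotype difference under E2/MPA was then -7.05 and passed, but its size follows from that choice of libraries. With all libraries the difference passed with DESeq2 and with library weights (adjusted p over all its alternatives 0.00206 to 0.581).

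Slc2a1, the main carrier of the set by level, had 6817, 6589, 6733 and 5785 normalized counts under E2/MPA and 10299, 9444, 9937 and 3992 under vehicle in cKO organoids. The control values were 5631, 5298, 5185 and 6130 under E2/MPA and 6275, 8910, 8814 and 4231 under vehicle. The lowest library of each vehicle group, M8 and M4, was stroma-rich, and neither effect passed (log2 fold change -0.29, adjusted p = 0.635 in cKO and -0.28, adjusted p = 0.574 in control). With the 4 stroma-rich libraries left out Slc2a1 fell by 0.56 in each genotype. The adjusted p was then 0.0150 for cKO, within a range of 0.0150 to 0.845 across the alternatives, and 0.00892 for control organoids, within 0.00892 to 0.789. Slc2a8, an intracellular carrier, did not pass in either genotype, with levels of 95.9 to 187 in all libraries.

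**Figure D2:**
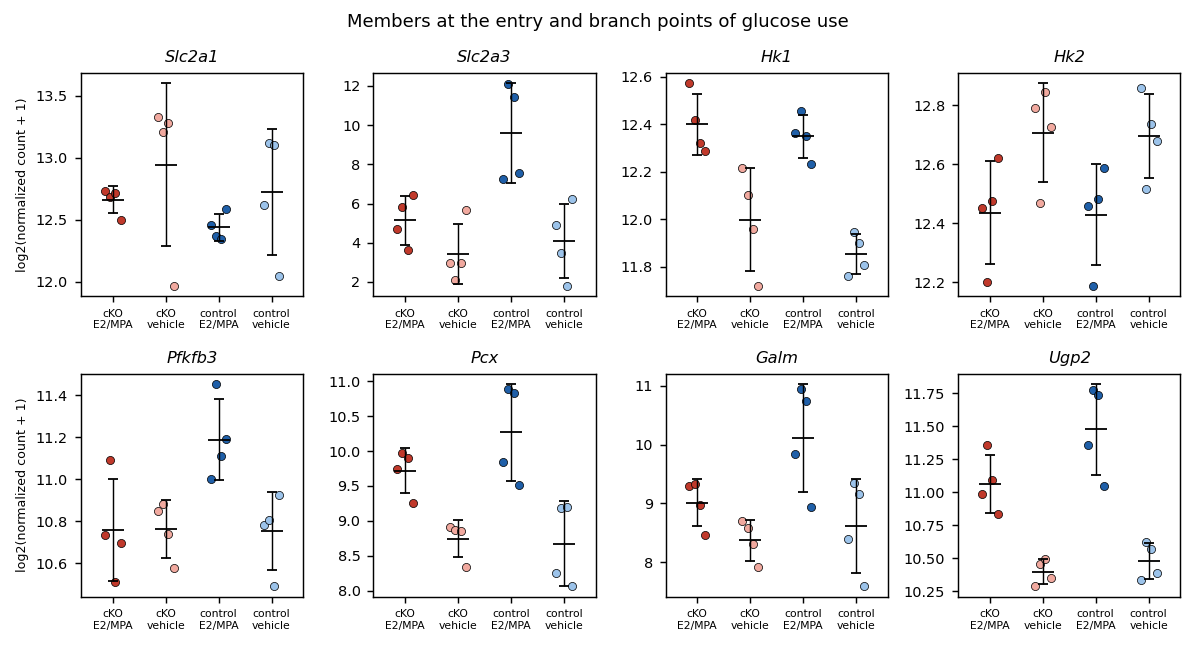
Log2(normalized count + 1) of 8 genes in each library (points), with the mean and SD of each group of 4 (line and bars), in cKO E2/MPA, cKO vehicle, control E2/MPA and control vehicle. Each y axis has its own range. Hk1, Pcx and Ugp2 are higher without overlap under E2/MPA in both genotypes, and Slc2a3 in control organoids spans 151 to 4413 normalized counts under E2/MPA.

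Below hexokinase, the calls in upper glycolysis fell on a pair of its regulators. Pfkfb2 and Pfkfb3 encode bifunctional enzymes that set fructose 2,6-bisphosphate, the activator of phosphofructokinase. Pfkfb2 had 266, 339, 253 and 241 normalized counts under E2/MPA and 154, 230, 204 and 184 under vehicle in cKO organoids. Its control counts were 304, 309, 302 and 235 under E2/MPA and 178, 234, 218 and 193 under vehicle. The groups did not overlap in either genotype, the lowest treated control library lying at 235 and the highest vehicle one at 234, and it rose by 0.50 averaged over both (SE 0.10, adjusted p = 0.00377), with adjusted p = 0.0635 in cKO and 0.0530 in control organoids alone. Pfkfb2 passed in 6 of 32 alternatives in cKO and in 11 of 32 in control organoids, DESeq2 among them in both. Pfkfb3, the form with the higher kinase activity, had 1702, 2183, 1457 and 1661 under E2/MPA and 1847, 1886, 1710 and 1528 under vehicle in cKO organoids (log2 fold change -0.0041, adjusted p = 0.994). Control libraries showed 2052, 2809, 2210 and 2337 under E2/MPA and 1763, 1791, 1438 and 1947 under vehicle (0.44, SE 0.13, adjusted p = 0.0485). The control groups did not overlap, yet this rise held in only 14 of 32 alternatives (adjusted p up to 0.164) and was lost under edgeR and without M1, M2, M3, M5, M6, M7, M10, M11, M12, M13 or M16, among others. The difference between the hormone effects on Pfkfb3 was -0.44 (SE 0.18, unadjusted p = 0.0295, adjusted p = 1.00).

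The other 7 genes of upper glycolysis did not pass in either genotype or averaged. Gpi1 (glucose phosphate isomerase), Pfkl, Pfkm, Pfkp, Aldoa, Aldoc and Tpi1 had log2 fold changes between -0.08 and 0.21 in cKO and between -0.05 and 0.18 in control organoids. For Aldoa, the most abundant per kb, the 95% interval of the log2 fold change was -0.15 to 0.31 in cKO and -0.16 to 0.30 in control organoids. For Pfkl it was -0.33 to 0.18 in cKO and -0.25 to 0.26 in control organoids.

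None of the 5 genes of lower glycolysis passed in any comparison of the limma fit, nor had any of them an unadjusted p under 0.05, and edgeR and DESeq2 called none. Pgk1 had log2 fold changes of 0.10 in cKO and 0.15 in control organoids, Pgam1 of 0.17 and 0.20, and Pkm of 0.05 and -0.05. Eno1 had -0.04 (SE 0.15) in cKO and -0.19 (SE 0.15) in control organoids, with 1 control E2/MPA library, the stroma-rich M12, at 37880 and the 3 others at 23617 to 25847. Without the 4 stroma-rich libraries Eno1 fell by 0.25 averaged over both genotypes (adjusted p = 0.0314, over all alternatives 0.0314 to 0.699). The Gapdh row was read unevenly, at 390, 406, 2525 and 1226 in cKO E2/MPA, 3223, 456, 515 and 374 in cKO vehicle, 449, 354, 376 and 517 in control E2/MPA and 2404, 514, 435 and 394 in control vehicle. Its mean per kb, 220, was far below that of its neighbours in the pathway. Gapdh, Eno1, Tpi1, Pgam1, Pgk1 and Ldha have near-identical copies in the mouse genome between which counting can split reads, so their levels are uncertain. The copies Gapdh-ps14 and Gapdh-ps15 reached no more than 5.6 and 3.23 normalized counts in any library, and Eno1b, a copy of Eno1, lay between 353 and 528. Why the Gapdh row was low and uneven was not tested.

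**Figure D3:**
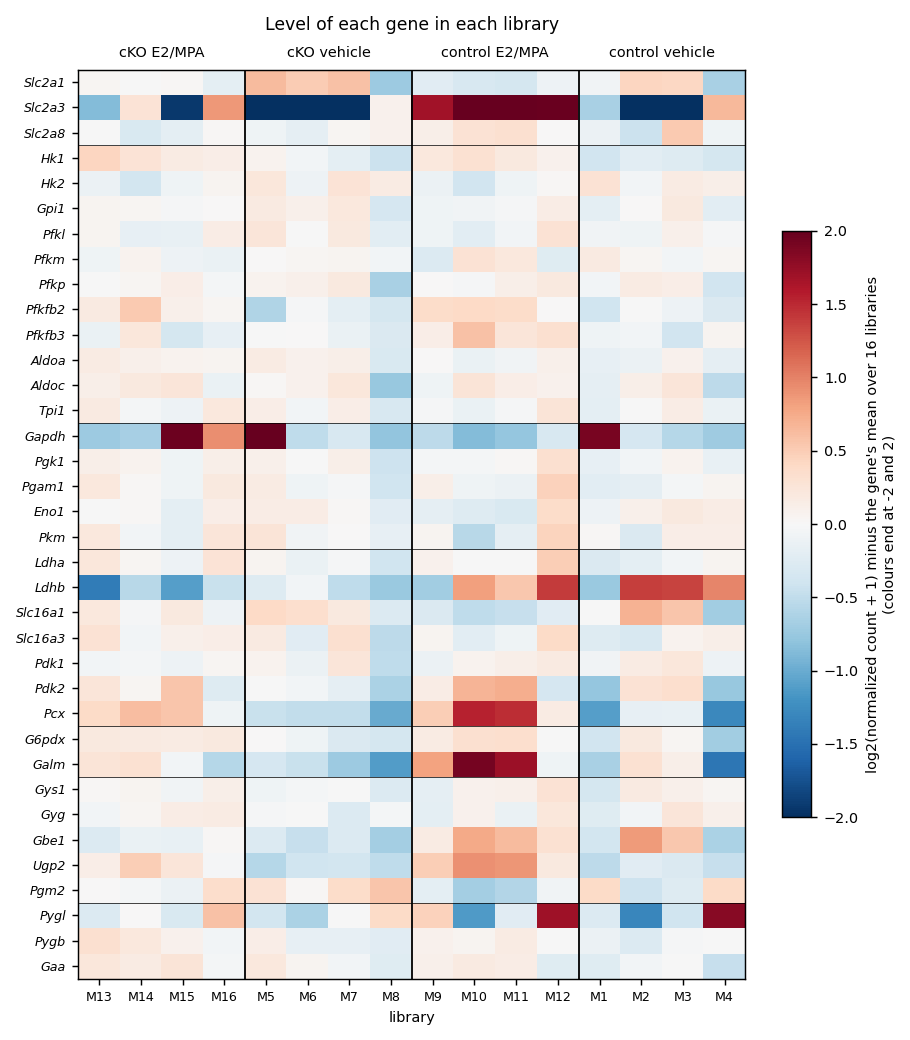
Level of each of the 36 genes (rows, by step) in each of the 16 libraries (columns), as log2(normalized count + 1) minus the gene's mean over all libraries; colours end at -2 and 2. Ugp2, Hk1 and Pcx are above their means in most E2/MPA libraries, Slc2a3 is highest in M9 to M12, and in cKO vehicle the stroma-rich library M8 is below the other 3 for most genes.

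Where pyruvate leaves glycolysis, Pcx (ENSMUSG00000024892), which carboxylates pyruvate to oxaloacetate, changed most. It had 918, 1893, 1820 and 729 normalized counts under E2/MPA and 305, 579, 589 and 266 under vehicle in control organoids, a log2 fold change of 1.59 (SE 0.33, adjusted p = 0.00727). In cKO organoids it had 855, 1000, 955 and 612 under E2/MPA and 479, 465, 464 and 324 under vehicle, a change of 0.97 (SE 0.33, adjusted p = 0.113). Treated libraries lay above vehicle libraries without overlap in both genotypes, and the difference between the effects was -0.62 (SE 0.46, adjusted p = 1.00). Averaged over both genotypes Pcx rose by 1.28 (SE 0.23, adjusted p = 0.00142). The call in control organoids held in 31 of 32 alternatives. In cKO organoids Pcx passed in 6 of 32, DESeq2 among them (adjusted p over all alternatives 1.91e-05 to 0.260). The other 6 genes of this step did not pass. Ldha had 25105, 22235, 20006 and 26009 under E2/MPA and 22324, 19561, 21241 and 16407 under vehicle in cKO organoids (log2 fold change 0.23, adjusted p = 0.389). For control organoids the values were 22935, 21481, 21404 and 30258 under E2/MPA and 17582, 18788, 20768 and 22404 under vehicle (0.26, adjusted p = 0.255), so that the groups overlapped in both genotypes.

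Ldhb, the form that favours lactate use, varied between libraries more than its partner, with 91.6, 165, 113 and 178 under E2/MPA and 202, 233, 171 and 145 under vehicle in cKO organoids, and 150, 430, 352 and 643 under E2/MPA and 144, 634, 617 and 477 under vehicle in control organoids. In control organoids M9 and M1 were low (150 and 144) and the other 6 libraries lay between 352 and 643. The cKO minus control difference was -1.39 under E2/MPA (SE 0.46, adjusted p = 0.297) and -1.13 under vehicle (SE 0.46, adjusted p = 0.824). The monocarboxylate carriers Slc16a1 (MCT1) and Slc16a3 (MCT4), which move lactate and pyruvate across the membrane, did not pass. Slc16a1 had 2372, 2050, 2098 and 2466 under E2/MPA and 2881, 4697, 4261 and 1798 under vehicle in control organoids (log2 fold change -0.51, adjusted p = 0.202). The stroma-rich M4 was the low vehicle library, and without the 4 stroma-rich libraries Slc16a1 fell by 0.83 in control organoids (adjusted p = 0.00433, over all alternatives 0.00433 to 0.394). Under E2/MPA all 4 cKO libraries of Slc16a1 (2710 to 3374) lay above all 4 control libraries (2050 to 2466), with adjusted p = 0.526. Pdk1 and Pdk2, kinases that inhibit pyruvate dehydrogenase, had log2 fold changes of 0.04 and 0.37 in cKO and 0.01 and 0.53 in control organoids, none past the threshold.

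G6pdx, the gene of the enzyme that opens the pentose phosphate route, had 7152, 7065, 6967 and 7088 normalized counts under E2/MPA and 6239, 5850, 5085 and 4862 under vehicle in cKO organoids. Control organoids had 6951, 7787, 7847 and 6214 under E2/MPA and 4766, 7108, 6399 and 3836 under vehicle. The groups did not overlap in cKO organoids and overlapped in control, and it rose by 0.39 averaged over both (SE 0.11, adjusted p = 0.0211) with no call in either alone (adjusted p = 0.217 and 0.112). Galm, which interconverts the anomers of galactose and glucose, had 916, 1973, 1704 and 490 under E2/MPA and 334, 648, 569 and 192 under vehicle in control organoids, a log2 fold change of 1.50 (SE 0.43, adjusted p = 0.0411). The groups overlapped, since M12 at 490 lay below M2 and M3, and the call held in 20 of 32 alternatives (adjusted p up to 0.164), lost among others without M1, M4, M5, M6, M7, M9, M10, M11, M13, M14 or M15. Galm had 627, 645, 502 and 351 under E2/MPA and 414, 383, 316 and 241 under vehicle in cKO organoids (0.64, SE 0.43, adjusted p = 0.469), and rose by 1.07 averaged over both (SE 0.30, adjusted p = 0.0221). In control organoids the stroma-richer libraries of each treatment, M9 and M12 under E2/MPA and M1 and M4 under vehicle, were the lower ones for Pcx, Galm, Ugp2 and G6pdx. A fit without M4, M8, M12 and M16 still held M1 and M9. In it the log2 fold change in control organoids was 1.64 for Pcx, 1.55 for Galm and 1.11 for Ugp2. These were as large as with all libraries, while that of G6pdx was 0.32, against 0.42 with all libraries.

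Of the glycogen genes, Ugp2 alone rose within a genotype. The other 4 genes of synthesis did not pass in cKO, in control or averaged. Gys1, which extends the chains, had 1620 to 1836 under E2/MPA and 1400 to 1684 under vehicle in cKO organoids, and 1495 to 2067 under E2/MPA and 1331 to 1909 under vehicle in control organoids (log2 fold change 0.13 in cKO and 0.08 in control). Gyg, the primer glycogenin, lay between 271 and 387 in all libraries. Gbe1, the branching enzyme, had 299, 328, 326 and 366 under E2/MPA and 296, 260, 297 and 225 under vehicle in cKO organoids, and 402, 607, 557 and 444 under E2/MPA and 278, 652, 523 and 231 under vehicle in control organoids. The cKO libraries of Gbe1 did not overlap between treatments (log2 fold change 0.29, adjusted p = 0.603), and under E2/MPA all 4 lay below all 4 control libraries (-0.59, SE 0.26, adjusted p = 0.419). Pgm2, of the phosphoglucomutase family, was lower under E2/MPA on average (log2 fold change -0.26 in cKO and -0.41 in control) without passing (adjusted p = 0.527 and 0.218).

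Among the 3 genes of glycogen breakdown, Pygb had 1532, 1422, 1307 and 1183 normalized counts under E2/MPA and 1343, 1091, 1095 and 1050 under vehicle in cKO organoids. The control libraries held 1294, 1278, 1371 and 1213 under E2/MPA and 1125, 1010, 1202 and 1216 under vehicle. The groups overlapped in both genotypes, and Pygb rose by 0.22 averaged over both (SE 0.07, adjusted p = 0.0336), a call that held in 19 of 31 alternatives (adjusted p up to 0.0719), lost among others without M1, M2, M6, M7, M8, M9, M10, M11, M13 or M14. Pygl had 112 in M16, 96.2 in M8, 242 in M12 and 263 in M4, the highest library of each group, and 29.3 to 102 in the other 12. The 7 macrophage and leukocyte markers had their highest mean log2 levels in M12 (9.88) and M4 (9.29), against 5.49 to 7.63 elsewhere. In M8 (5.49) and M16 (6.28) this mean was the lowest of the group. The part of these markers in the Pygl values was not tested. Gaa, the lysosomal glucosidase, had log2 fold changes of 0.16 in cKO and 0.24 in control organoids (adjusted p = 0.534 and 0.246).

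The second comparison asked whether genotype changes these genes. Under vehicle 0 of 36 passed in the limma fit, as 0% of all genes did, with 1 at an unadjusted p under 0.05, Ldhb, and none called by edgeR or DESeq2. Of all 16509 genes 984 had an unadjusted p under 0.05 in that limma comparison, and DESeq2 called 0.0848%. Under E2/MPA 0 of 36 passed, beside 0.00606% of all genes (1 gene), with 7 at an unadjusted p under 0.05, none called by edgeR and 2 by DESeq2, Slc2a3 and Ldhb, both lower in cKO. Here 1794 of all 16509 genes had an unadjusted p under 0.05 in limma, and DESeq2 called 1.12%. For the difference between the hormone effects 0 of 36 passed, as 0% of all genes did, with 2 at an unadjusted p under 0.05, Slc2a3 and Pfkfb3, and none called by edgeR or DESeq2. For this difference 309 of all 16509 genes had an unadjusted p under 0.05 in limma. Without overlap under E2/MPA, 1 gene was higher in cKO (Slc16a1), beside 3.82% of all genes, and 2 were lower (Slc2a3 and Gbe1), beside 2.35%. Under vehicle the cKO and control libraries overlapped for all 36 genes, beside 1.64% of all genes higher and 1.37% lower without overlap. The E2/MPA levels of Ugp2 were 2161 ± 337 in cKO and 2908 ± 662 in control organoids (SD, n = 4; log2 fold change -0.41, SE 0.15, adjusted p = 0.319). In those E2/MPA libraries Galm averaged 531 ± 136 in cKO and 1271 ± 687 in control organoids (-1.10, SE 0.43, adjusted p = 0.362). These genotype values share their E2/MPA libraries with the hormone comparisons.

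Ratios between related genes were computed within each library for 10 pairs and tested in the 4 comparisons of 2 groups. None of the 40 tests passed after adjustment. Passing would have needed most of them to reach the smallest possible p, so this decides little about any single ratio. That smallest p, 0.0286, was reached by 7 tests. Besides Hk2 to Hk1 in both genotypes, these were Pfkfb3 to Pfkfb2 in cKO organoids, with a log2 ratio of 2.66 ± 0.11 under E2/MPA and 3.18 ± 0.27 under vehicle. The ratio of Ldha to Ldhb in cKO organoids was 7.45 ± 0.45 under E2/MPA and 6.73 ± 0.24 under vehicle. Slc2a3 to Slc2a1 in control organoids was -2.85 ± 2.63 under E2/MPA and -8.62 ± 2.37 under vehicle, and under E2/MPA it was -7.51 ± 1.32 in cKO. Slc16a3 to Slc16a1 under E2/MPA was 0.29 ± 0.14 in cKO and 0.65 ± 0.14 in control organoids. The groups of these 7 tests did not overlap (SD, n = 4 in each).

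**Figure D4:**
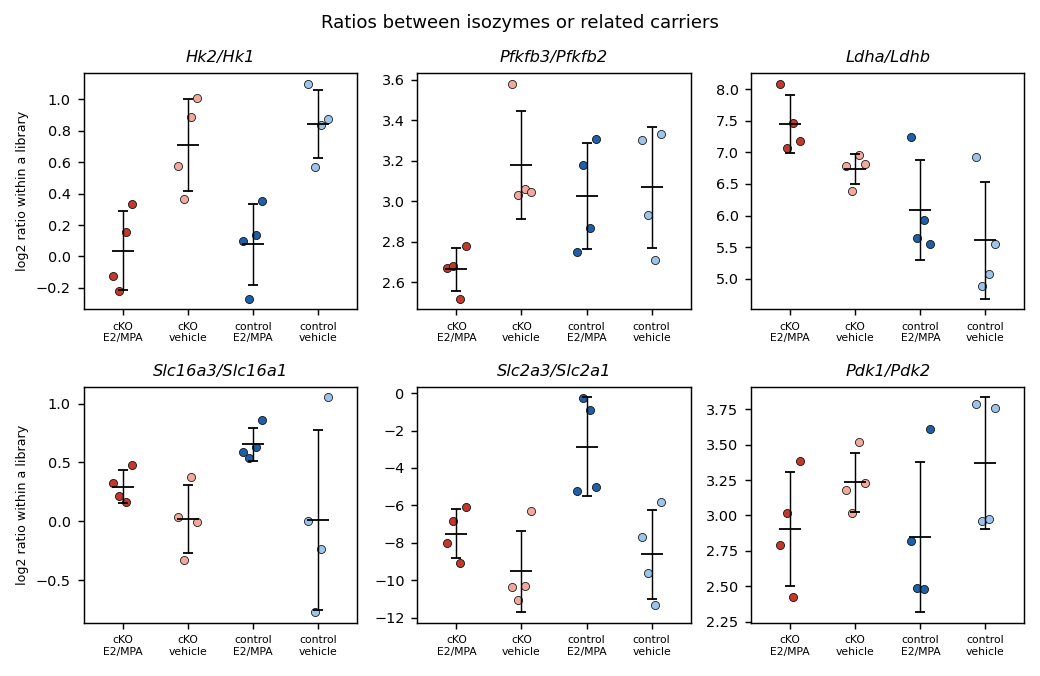
Log2 ratio of 6 pairs of related genes within each library (points), with the mean and SD of each group of 4, in cKO E2/MPA, cKO vehicle, control E2/MPA and control vehicle. Each y axis has its own range. The ratio of Hk2 to Hk1 is lower under E2/MPA in both genotypes without overlap, at 0.04 and 0.08 on average, against 0.71 and 0.85 under vehicle.

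Other genes of glucose handling were counted from 8 lists beside the 36. For the hormone effect, 3075 of all 16509 genes in cKO and 3942 in control organoids had an unadjusted p under 0.05 in limma. DESeq2 called 7.6% of all genes in cKO and 13.2% in control organoids. The list medians of the log2 fold change ran between -0.06 and 0.45 in cKO and between 0.04 and 0.73 in control organoids, the further hexose carriers having the highest in each. Of 7 further hexose carriers tested, Slc2a12 rose and Slc5a9 fell in both genotypes. Slc2a12 (GLUT12) had 155, 381, 177 and 82.8 normalized counts under E2/MPA and 13.5, 16.0, 16.9 and 23.4 under vehicle in cKO organoids (log2 fold change 3.25, SE 0.58, adjusted p = 0.00555). The control values were 308, 935, 797 and 113 under E2/MPA and 16.6, 42.9, 23.7 and 29.6 under vehicle (3.86, SE 0.58, adjusted p = 9.4e-04). Treated libraries lay above all vehicle libraries in both genotypes, a change that in cKO organoids was larger than that of any of the 36 genes. Slc5a9, a sodium-coupled hexose carrier, had 736, 786, 924 and 927 under E2/MPA and 1616, 1785, 2071 and 1386 under vehicle in cKO organoids (-1.01, SE 0.27, adjusted p = 0.0494). Its control counts were 585, 811, 832 and 718 under E2/MPA and 1625, 2744, 2294 and 840 under vehicle (-1.23, SE 0.27, adjusted p = 0.0115), again without overlap in either genotype. The fall in cKO organoids, close to the threshold, held in 14 of 32 alternatives and was lost without any single library except M2 or M4, whereas the fall in control organoids held in 31.

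Of 12 further pyruvate and lactate genes, Pdk4 rose in both genotypes and no other passed in either. Pdk4, the pyruvate dehydrogenase kinase that is induced in fasting, had 25.0, 15.0, 27.4 and 36.6 under E2/MPA and 2.24, 3.36, 4.52 and 0.84 under vehicle in cKO organoids (log2 fold change 2.90, SE 0.45, adjusted p = 0.00211). Control libraries showed 19.5, 32.0, 22.5 and 25.3 under E2/MPA and 0, 1.13, 0.82 and 3.20 under vehicle (3.66, SE 0.45, adjusted p = 2.05e-04). Every treated library lay above every vehicle library in both genotypes, although all values were low. Of 5 genes of galactose, fructose and polyol use, 1 rose in each genotype. Sord (sorbitol dehydrogenase) had 55.9, 63.4, 34.2 and 33.3 under E2/MPA and 14.6, 26.9, 23.7 and 14.2 under vehicle in cKO organoids (log2 fold change 1.19, SE 0.27, adjusted p = 0.0240). In the control groups it had 54.9, 62.0, 83.8 and 77.0 under E2/MPA and 19.6, 23.7, 33.5 and 24.8 under vehicle (1.42, SE 0.27, adjusted p = 0.00528). Treated and vehicle libraries did not overlap in either genotype, and the call in cKO organoids was lost without M5, M8, M13 or M14.

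Of 17 other glycolysis and gluconeogenesis genes, none passed in cKO organoids (2 at an unadjusted p under 0.05, none by edgeR or DESeq2). In control organoids Ldhc, the lactate dehydrogenase of sperm, rose at low levels, with 13.7, 65.0, 39.8 and 7.70 under E2/MPA and 0, 2.26, 2.45 and 0.80 under vehicle (log2 fold change 3.51, SE 0.82, adjusted p = 0.0153). That call was lost without M1, M10 or M11. None of 7 other pentose phosphate genes passed within a genotype in limma (1 in cKO and 2 in control organoids at an unadjusted p under 0.05, none by edgeR and 1 by DESeq2 in each). H6pd, the enzyme of that route in the endoplasmic reticulum, had 20167, 16717, 20305 and 15931 under E2/MPA and 12068, 12822, 11310 and 7616 under vehicle in cKO organoids, and 19732, 18021, 17299 and 12659 under E2/MPA and 8659, 14450, 12611 and 6484 under vehicle in control organoids. Its log2 fold change was 0.76 in cKO (adjusted p = 0.0827) and 0.73 in control organoids (adjusted p = 0.0630), and it rose by 0.75 averaged over both (SE 0.16, adjusted p = 0.00555). None of 18 other glycogen genes passed within a genotype in limma (1 in cKO and 2 in control organoids at an unadjusted p under 0.05, none by edgeR or DESeq2), and Gsk3b, a kinase that inhibits glycogen synthase, had log2 fold changes of -0.05 and -0.06.

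Of 19 regulators of glucose use, none passed in cKO organoids in limma (8 at an unadjusted p under 0.05, none by edgeR and 2 by DESeq2), and in control organoids 2 rose and 2 fell. Hif1a, the oxygen-regulated subunit of hypoxia-inducible factor, had 4250, 3944, 3657 and 4510 under E2/MPA and 7211, 6076, 5704 and 6470 under vehicle in control organoids (log2 fold change -0.64, SE 0.14, adjusted p = 0.0128). In cKO organoids it had 3746, 4118, 4215 and 6332 under E2/MPA and 5417, 5351, 6352 and 6959 under vehicle (-0.41, SE 0.14, adjusted p = 0.129), with M16 the treated library among the vehicle values. Arnt, the partner subunit, rose by 0.34 (SE 0.06, adjusted p = 0.00272) and Egln1, the hydroxylase that marks the oxygen-regulated subunit for destruction, by 0.59 (SE 0.13, adjusted p = 0.00967) in control organoids. Foxo1, named here after its values were seen, is a transcription factor that insulin signalling inhibits, and it fell by 0.50 in control organoids (SE 0.12, adjusted p = 0.0167), a call lost without M1, M10 or M11. In cKO organoids Arnt had a change of 0.18 (adjusted p = 0.111) and Egln1 of 0.45 (adjusted p = 0.0598). Of 12 genes outside glycolysis that answer to this factor, none passed in cKO organoids in limma (4 at an unadjusted p under 0.05, none by edgeR or DESeq2), and in control organoids 2 rose, P4ha2 by 0.45 (adjusted p = 0.00851) and Higd1a by 0.31 (adjusted p = 0.0421). The call of Higd1a held in 17 of 32 alternatives and was lost without any 1 of 11 libraries.

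Averaged over both genotypes, where 19.8% of all genes passed, more genes of these lists did, named here after their values were seen. Of the 12 genes that answer to hypoxia-inducible factor 5 rose, Bnip3, Ankrd37, Ndrg1, P4ha2 and Higd1a, by 0.28 to 0.58, and 2 fell, Car9 by 0.67 and Ddit4 by 0.40. Of the 19 regulators 5 rose, Arnt, Epas1, Egln1, Mlxip and Akt2, by 0.21 to 0.67, and 2 fell, Hif1a by 0.52 and Foxo1 by 0.42. Among the pyruvate and lactate genes Mpc1 (0.64) and Pdk3 (0.44) rose beside Pdk4, and no gene of that list fell. Among the glycolysis and gluconeogenesis genes Ldhc rose (2.05) and Adpgk (-0.32), Bpgm (-0.58) and G6pc3 (-0.23) fell. Of the glycogen genes Nhlrc1 (-0.47) and Stbd1 (-0.67) fell and none rose. In the hexose carrier, pentose phosphate and galactose lists no gene passed besides Slc2a12, Slc5a9, H6pd and Sord.

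**Figure D5:**
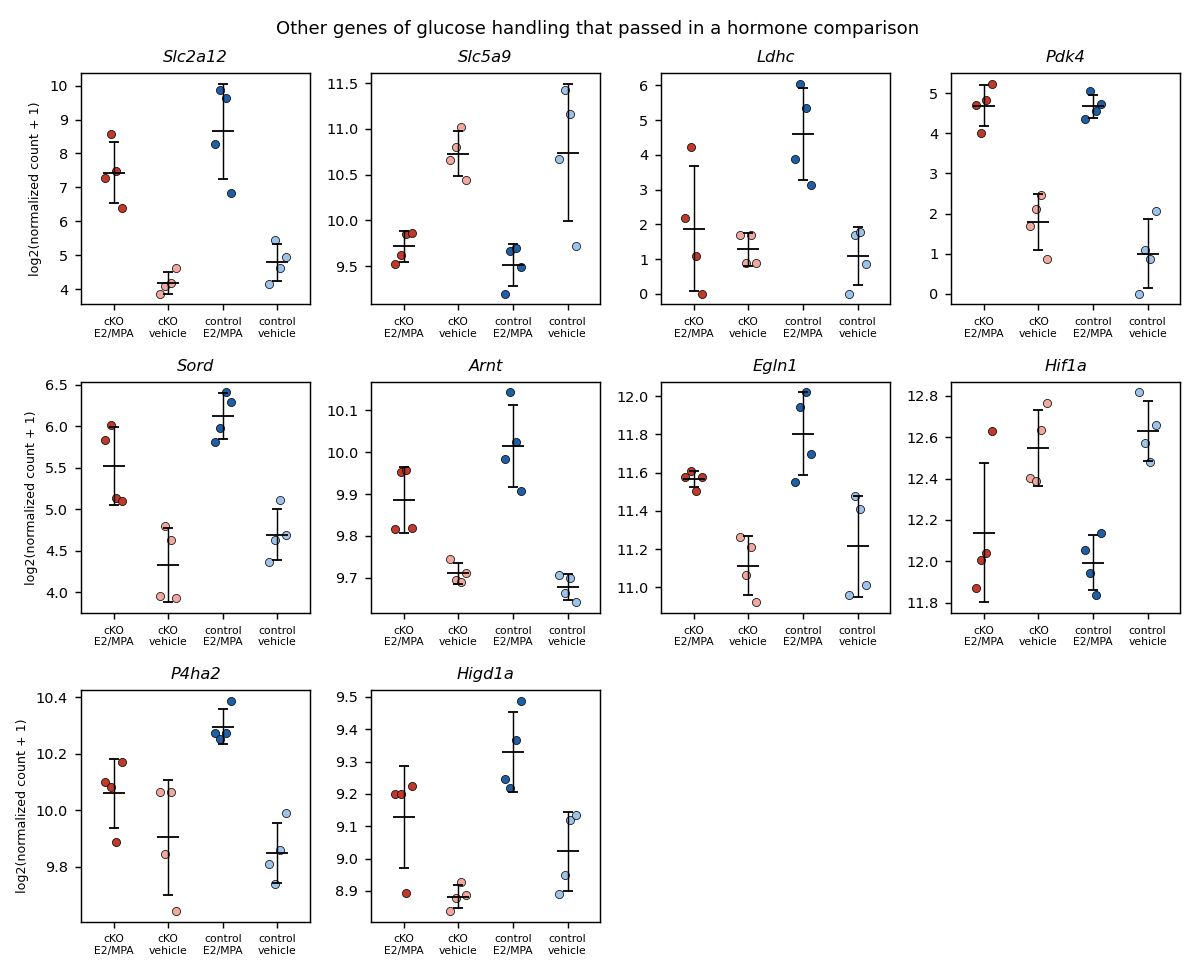
Log2(normalized count + 1) of 10 further genes of glucose handling that passed in at least 1 genotype, in each library (points) with the mean and SD of each group of 4, in cKO E2/MPA, cKO vehicle, control E2/MPA and control vehicle. Each y axis has its own range. Slc2a12, Pdk4 and Sord are higher and Slc5a9 lower under E2/MPA in both genotypes without overlap.

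The stroma-rich libraries differed in these genes within their groups. In cKO vehicle M8 was the lowest library for 28 of the 36 genes and for 14 of the 16 genes of glycolysis, while it was lowest for 32.8% of all genes. In control E2/MPA M12 was the highest for 21 of the 36 and for 11 of the 16, while it was highest for 35.5% of all genes. M16 was highest for 15 and lowest for 14 of the 36 in cKO E2/MPA, while it was highest for 31.6% and lowest for 30.3% of all genes. M4 was highest for 7 and lowest for 13 of the 36 in control vehicle, while it was highest for 34.2% and lowest for 30.1% of all genes. Without these 4 libraries 3 of the 36 genes passed in cKO and 8 in control organoids, beside 2 and 6 with them, and of all genes 5.81% passed in cKO and 13.4% in control organoids, beside 4.19% and 8.9% with them.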

How the data were processed

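RNA-seq of 16 organoid libraries, 4 in each of 4 groups, was deposited as 1 table of 23306 genes; the deposited signal values are the authors' normalized counts, whole reads divided by a size factor per library, and the division was undone here (100% of values whole within 0.01 read). Alignment and counting tools listed in the submitters' processing notes are HISAT2 and featureCounts, with DESeq2 and build GRCm39; versions, annotation and strand setting are not given in the sources used here. Gene symbols (22484 genes) and exon lengths (union of all exons of a gene) came from GENCODE M21, and promoters from RefSeq (GRCm38.p6).

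The 36 genes, the other pathway lists and the tests were chosen with earlier results of these data known. One gene of a pathway list is not reported here. Each pathway list names up to 3 called genes, lowest adjusted p first, or, where none passed, the gene with the highest mean; Foxo1 and the genes given for the averaged effect alone were named after their values were seen. The 16509 genes that reached 10 in 4 or more libraries were tested with limma 3.58.1 (R 4.3.3) on log2(value + 1), with 4 group means, a mean-variance trend and Benjamini-Hochberg adjustment over all of them, threshold 0.05; the fit was tested on simulated data. edgeR 4.0.16 and DESeq2 1.42.0 on the recovered reads, other scalings, filters, pseudocounts and left-out libraries were alternatives. Ratios were tested with exact permutation tests in SciPy 1.17.1. No label states that the libraries of a group are different animals; a p-value here reflects only how these samples vary, possibly for technical reasons.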

Additional observations from a re-analysis of the deposited data

Results flagged for a closer look

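In groups of 4 libraries, a single library stood far from the other 3 for 10 of the 144 combinations of gene and group (6.94%), where chance flags about 1 in 20 groups. In cKO vehicle, the stroma-rich library M8 was low for Slc2a1 (3992 normalized counts) and Pcx (324) and high for Slc2a3 (49.4). Library M5 of the same group was high for Gapdh (3223) and Pygb (1343), and M7 was low for Gyg (271). In control E2/MPA, the stroma-rich library M12 was low for Pfkfb2 (235) and high for Eno1 (37880). In control vehicle, M1 was high for Gapdh (2404) and the stroma-rich M4 was high for Pygl (263). Of these 10 values 6 came from M4, M8 or M12, and the part of the stromal and macrophage markers in them was not tested.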

How the results depend on the processing

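The number of the 36 genes called for E2/MPA in cKO organoids was 2, with 4.19% of all genes called. It was 1 with upper-quartile scaling (4.14% of all genes), 4 with DESeq2 (7.6%), 4 with library weights (10.2%), 10 with the stromal mean as covariate (18.0%), 7 with a random block joining libraries 8 numbers apart (18.8%), 4 without M4, M8, M9, M12 and M16 (6.74%, chosen after seeing the data), and 0 to 3 with 1 library left out (2.19% to 5.01%). In control organoids it was 6 (8.9% of all genes), against 2 with only the groups compared in the fit (2.93%), 11 with the stromal covariate (24.8%), 12 with the block (27.1%) and 4 to 7 with 1 library left out (4.6% to 13.5%). Averaged over both genotypes it was 9 (19.8%), against 14 with the stromal covariate (35.5%), 14 with the block (38.5%), 14 without the 5 libraries (23.9%) and 7 to 10 with 1 left out (15.7% to 23.4%). For genotype under E2/MPA it was 0 (0.00606%), against 2 with DESeq2 (1.12%), 4 with library weights (3.62%), 4 with the covariate (2.76%) and 4 without the 5 libraries (2.36%). For genotype under vehicle and for the difference between hormone effects it was 0 under every alternative run. The cause of these moves was not tested. No called gene changed direction under any alternative run. No paired analysis was possible from the labels because the groups share no replicate numbers there. The block above is a pairing taken from the data, as a hint only, under which Hk2, Pfkfb2, Pcx, G6pdx and Pygb passed in cKO organoids besides Hk1 and Ugp2. The deviations of libraries 8 numbers apart correlated at 0.596 to 0.808, against -0.702 to 0.564 for other vehicle and E2/MPA pairs. Low counts limit Slc2a3, Ldhc and Pdk4 under vehicle.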
